A study of Caenorhabditis elegans with 2 samples.

Results

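The cathepsin-type proteases of *C. elegans* described here are the aspartyl protease genes (*asp*), the cathepsin B-like genes (*cpr*), the cathepsin L gene (*cpl*) and the cathepsin Z genes (*cpz*). They were taken by symbol alone, as every gene named *asp-*, *cpr-*, *cpl-* or *cpz-* with a number, and no measured value enters that rule, although the set was picked for description with earlier results of these data known. This gave 28 of the 46904 genes listed, of which 17 were *asp*, 8 *cpr*, 1 *cpl* and 2 *cpz*. All 28 are annotated as protein coding. Of these, 25 had at least 50 reads over the 2 libraries together, 2 had fewer and *asp-19* had none.

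RNA came from whole N2 worms, the wild-type laboratory strain, in 2 groups with 1 library each. Worms of both groups ate *L. plantarum*, a bacterium of fermented food. To this food 0.2 µl of live *E. coli* was added, either the wild-type strain BW25113 (the wt library) or a *pdxH* mutant (the pdxH library), which lacks the bacterial oxidase that makes pyridoxal phosphate. The study compared them to ask how the worm's gene expression depends on this bacterial gene. It reports that larvae arrest early when the trace *E. coli* lacks *pdxH*, whereas wild-type *E. coli* lets them grow on *L. plantarum*. For the RNA, its methods describe animals of equal stage on either food. The part of growth or developmental stage in the differences below was not tested. With 1 library for each diet no difference below has a replicate check, and no test between the diets was possible. A test of the reads of these 2 libraries alone stands among the alternatives in the processing.

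Cathepsins are proteases that work best in acid. Aspartyl cathepsins cut proteins with a pair of aspartates in the active site, whereas the cathepsin B, L and Z types use a cysteine. In the worm they act in the intestinal lumen, where they digest bacteria, and inside lysosomes, where they break down proteins taken up by endocytosis or autophagy. They are made as inactive precursors that mature in acid compartments, and cystatins and serpins hold them in check.

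The wt library held 40707752 reads assigned to genes and the pdxH library 46372171, a ratio of 1.14. A difference is given as the log2 ratio of reads in pdxH over wt, with 1 read added in each library and each divided by its library's total. "Higher" and "lower" below mean past 0.5 on this scale in a gene with at least 50 reads, and the interval after each value is the exact 95% interval of counting error. Molecular identifiers are not mentioned in the sources used here, and the interval covers neither amplification nor variation between cultures. Levels are given as RPM, a gene's reads per 1000000 reads of its library, and levels of different genes are compared only as RPM per kilobase of exon.

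As a family these proteases were abundant. They took 659172 reads in wt and 743025 in pdxH, which is 1.62% and 1.60% of the reads. The *asp* genes held 1.06% of the wt reads and 1.09% of the pdxH reads, and the cysteine types together held 0.557% and 0.511%. Ranks by level are among the protein-coding genes with reads in that library, 17841 in wt and 17739 in pdxH. Of the 28 genes, 14 were among the 500 highest of these per kilobase in each library. The most abundant in wt was *asp-1*, an aspartyl protease of the intestine, at 2428 RPM per kilobase (rank 60 of 17841 genes). *asp-6* stood next at 2129 (rank 76), and in pdxH their order was the reverse, with 2329 for *asp-6* and 2016 for *asp-1*. *asp-3*, *cpr-5*, *asp-5*, *cpl-1* and *cpr-4* followed in both libraries, between 819 and 1360 in wt and between 754 and 1482 in pdxH. At the other end of the 25 genes, *asp-7*, *cpr-2* and *asp-9* were below 1 RPM per kilobase in both libraries.

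**Figure D1:**
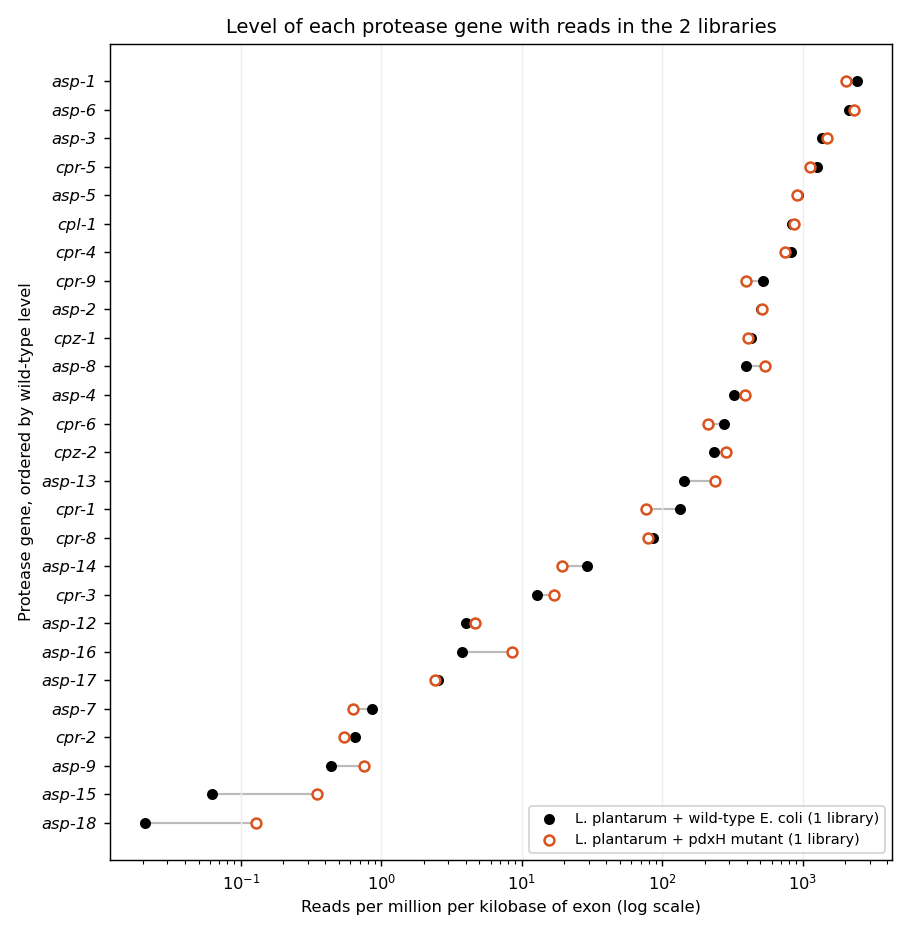
Level of the 27 protease genes with reads, as RPM per kilobase of exon on a log axis, in the wt library (filled points) and the pdxH library (open points), 1 library each, with a line joining the points of a gene. Levels run from *asp-18* at 0.0208 in wt to *asp-1* at 2428, and the order of the genes is nearly kept between the libraries.

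Of the 25 genes with at least 50 reads, 3 were higher in pdxH (*asp-9*, *asp-13* and *asp-16*) and 2 were lower (*asp-14* and *cpr-1*). Over all 14279 genes with as many reads, 5.89% were higher and 9.48% lower, and beside these shares neither count sets the proteases apart from the rest of the table. The median log2 ratio of the 25 was -0.03 and that of all genes 0.01. Log2 ratios above 0 were found for 12 of the 25 and below 0 for 13, beside 7422 and 6857 of all 14279 genes. The log2 ratio of the summed reads was -0.02 (-0.02 to -0.01). The interquartile range of all genes, from -0.17 to 0.19, held 9 of the 25, and the median size of the log2 ratio regardless of sign was 0.25, beside 0.18 for all genes.

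Deep counts made most of these ratios precise, and 20 of the 25 counting intervals excluded 0, beside 7601 of the 14279 for all genes. With at least 20000 reads in all, 13 of 14 proteases and 654 of 759 genes had such an interval. None of the 14 proteases with at least 20000 reads in all passed the threshold in either direction, and their log2 ratios lay between -0.40 and 0.43. Among all 759 genes with as many reads, 16 were higher and 39 lower. *asp-13*, which did pass, lies just under that bound with 19976 reads in all. *cpr-1* had 9739, and the other genes that passed had under 5000.

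The *asp* genes with the most reads did not pass the threshold. *asp-1* (V:19049562-19050752, minus strand, a single exon) had 117738 reads in wt and 111336 in pdxH, a log2 ratio of -0.27 (-0.28 to -0.26). *asp-6* (V:8267511-8268937, minus strand) had 110504 and 137709 reads, a log2 ratio of 0.13 (0.12 to 0.14). As low as *asp-1* were 17.4% of all 14279 genes and 10.3% of the 3171 with at least 5000 reads in all. As high as *asp-6* were 32.4% and 26.7%. The library with more of the one had less of the other, and *asp-1* held 27.2% of all *asp* reads in wt, while *asp-6* held 27.2% of them in pdxH. For the whole *asp* class the summed reads were 432466 and 506240, a log2 ratio of 0.04 (0.03 to 0.05), and without *asp-1* it was 0.14 (0.13 to 0.15). Without *asp-6* it was 0.01.

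*asp-3* and *asp-4*, lysosomal aspartyl proteases of the cathepsin D kind that are required for necrotic death of neurons in the worm, are both on the X chromosome. *asp-3* (X:6791064-6792709, plus strand) had 80960 reads in wt and 100445 in pdxH, a log2 ratio of 0.12 (0.11 to 0.14). *asp-4* (X:13218985-13221462, minus strand) had 19382 and 26225, a log2 ratio of 0.25 (0.22 to 0.28). Neither reached the threshold. *asp-5* had 46595 and 52122 reads, a log2 ratio of -0.03 (-0.04 to -0.01). *asp-2* had 28539 and 32975, a log2 ratio of 0.02 (-0.00 to 0.04), which turned to -0.00 when the libraries were scaled by their ribosomal protein genes. *asp-5* and *asp-2* were thus nearly level between the diets.

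Of the aspartyl genes with more than 5000 reads in all, *asp-13* and *asp-8* had the highest ratios. *asp-13* (V:8641602-8643193, minus strand, 7 exons) had 6964 reads in wt and 13012 in pdxH, 1.64 times the RPM, a log2 ratio of 0.71 (0.67 to 0.76). Of all 14279 genes, 1.996% had a ratio as high, and of the 3171 with at least 5000 reads in all, 0.442%. *asp-8* (V:3024549-3027931, plus strand) had 19756 and 30321 reads, which gives 0.43 (0.40 to 0.46), below the threshold, and the shares as high were 8.19% and 2.62%. By level per kilobase *asp-13* moved from rank 807 in wt to rank 481 in pdxH, and *asp-8* from rank 292 to rank 208.

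Among the 25 genes the highest ratio belonged to *asp-16* (V:19039030-19042605, minus strand, 2 exons), a gene of low abundance. It had 186 reads in wt and 481 in pdxH, 2.26 times the RPM, a log2 ratio of 1.18 (0.94 to 1.43). Of all 14279 genes, 0.308% had a ratio as high. *asp-9*, on chromosome IV, had 23 and 45 reads, and its log2 ratio of 0.75 (0.02 to 1.57) passed the threshold with an interval that reaches nearly to 0. *asp-14* (X:6444185-6446664, minus strand, 7 exons) was the only *asp* gene that was lower, with 1423 reads in wt and 1074 in pdxH, a log2 ratio of -0.59 (-0.71 to -0.48). At this depth the interval of *asp-14* still includes the threshold, whereas that of *asp-16* and that of *asp-13* lie wholly past it.

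The remaining *asp* genes had few reads. *asp-12* had 226 and 298 reads, a log2 ratio of 0.21 (-0.04 to 0.47). *asp-17* had 124 and 136, a log2 ratio of -0.06 (-0.42 to 0.31). *asp-7* had 42 and 35, a log2 ratio of -0.44 (-1.14 to 0.23). For these 3 genes a difference was not detectable at this depth. *asp-15* had 3 reads in wt and 19 in pdxH, with an interval of 0.71 to 4.87 on the log2 scale. *asp-18* had 1 and 7, with an interval of -0.34 to 8.11. *asp-19* had no read in either library, which allows up to 3 reads in each.

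Most of the cathepsin B-like genes had ratios below 0. Of the 8 *cpr* genes, 7 had a log2 ratio below 0 and 1 above, with a median of -0.20. The 7 include *cpr-2*, with only 55 reads and an interval that includes 0. Of the 14 *asp* genes with at least 50 reads, 9 were above 0 and their median was 0.13. Beside these, 7422 of all 14279 genes were above 0 and 6857 below. The *cpr* reads summed to 153600 in wt and 149205 in pdxH, a log2 ratio of -0.23 (-0.24 to -0.22). Only *cpr-1* passed the threshold, and the difference between the classes was not tested. Of the tissue markers described below, 7 of 8 for the intestine were below 0, but 4 of these 8 counting intervals included 0. Also below 0 were 5 of 5 for body wall muscle, 4 of 5 for hypodermis, 5 of 6 for germline and 5 of 6 for pharyngeal gland. Pharyngeal muscle had 3 of 5 below 0, and all 5 neuronal markers were above 0. The part of any tissue in the *cpr* ratios was not tested. Scaling the libraries by the sum of the intestinal markers adds 0.32 to every log2 ratio, so a gene's starting value alone fixes its sign. With it *cpr-2*, *cpr-4*, *cpr-5* and *cpr-8* turned above 0, and *cpr-1*, *cpr-6* and *cpr-9* stayed below.

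*cpr-1* (V:11975551-11976756, plus strand, 3 exons) encodes a cysteine protease of the gut. It had 5879 reads in wt and 3860 in pdxH, 1.73 times lower in RPM, a log2 ratio of -0.79 (-0.85 to -0.74). Of all 14279 genes, 5.52% had a ratio as low, and of those with at least 5000 reads 3.56%, and the gene moved from rank 862 to rank 1492 by level per kilobase. *cpr-9* had 29201 and 25194 reads, a log2 ratio of -0.40 (-0.43 to -0.38). *cpr-6* had 14083 and 12444, a log2 ratio of -0.37 (-0.40 to -0.33). These 3 genes had fewer reads in the deeper library.

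*cpr-5* and *cpr-4*, the most abundant cathepsin B-like genes, differed less. *cpr-5* had 62225 reads in wt and 63136 in pdxH, a log2 ratio of -0.17 (-0.18 to -0.15). *cpr-4*, a secreted cathepsin B known from the response of unexposed tissue to radiation elsewhere in the worm, had 37641 and 39455, a log2 ratio of -0.12 (-0.14 to -0.10). *cpr-8* had 3831 and 4015, a log2 ratio of -0.12 (-0.18 to -0.06). *cpr-3* was the 1 gene of the class above 0, with 712 reads in wt, 1074 in pdxH and a log2 ratio of 0.40 (0.27 to 0.54). *cpr-2* had 28 and 27 reads, and its log2 ratio of -0.24 (-1.06 to 0.58) shows no detectable difference at this depth.

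The cathepsin L and Z genes did not pass the threshold in either direction. *cpl-1* (V:16592572-16595346, minus strand), the worm's cathepsin L, acts in yolk processing in the embryo and in moulting. It had 40897 reads in wt and 48004 in pdxH, a log2 ratio of 0.04 (0.02 to 0.06). *cpz-1* (I:2686640-2689429, minus strand), a cathepsin Z with a role in moulting, had 17265 and 18810, a log2 ratio of -0.06 (-0.09 to -0.03). *cpz-2* (V:13381189-13383077, plus strand) had 14944 and 20766, a log2 ratio of 0.29 (0.26 to 0.32). The levels of the cathepsin Z genes drew closer, from 1.82 times as much *cpz-1* as *cpz-2* per kilobase in wt to 1.43 times in pdxH.

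**Figure D2:**
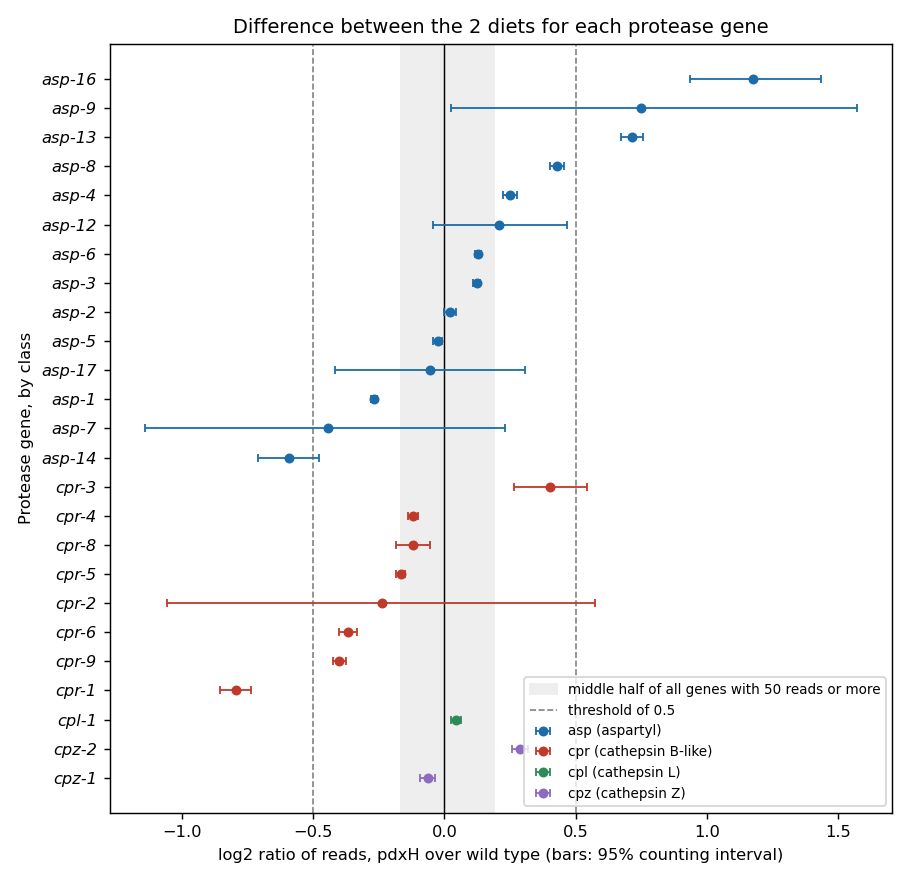
Log2 ratio of reads, pdxH over wt, for the 25 protease genes with at least 50 reads, grouped by class, with bars for the 95% counting interval, dashed lines at the threshold of 0.5 and a grey band for the interquartile range of all 14279 genes. *asp-16*, *asp-9* and *asp-13* lie past the right line, *asp-14* and *cpr-1* past the left, and 7 of the 8 *cpr* genes lie left of 0.

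The genes are not spread evenly over the genome. In the WBcel235 build, 22 of the 28 are on chromosome V, 4 on X and 1 each on I and IV. On chromosome V, 13 of them stand in 5 clusters with no other protein-coding gene between neighbours, and neighbours often differed widely in level. *asp-8* and *asp-7* share a strand with 353 bases between them, and *asp-8* was 463 times as abundant per kilobase in wt and 852 times in pdxH. *asp-12* lies between *asp-6* and *asp-5* in a stretch of 6534 bases. *asp-6* was 533 times as abundant as *asp-12* per kilobase in wt and 504 times in pdxH. *cpr-5* and *cpr-8* point away from each other across 565 bases, and *cpr-5* was 14.8 times as abundant per kilobase in wt and 14.3 times in pdxH.

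The cluster of *asp-17*, *asp-16*, *asp-15* and *asp-1* spans 15030 bases on the minus strand and holds both the most abundant protease in wt and, among the 25 genes, the one with the highest ratio. *asp-1* was 646 times as abundant as *asp-16* per kilobase in wt and 236 times in pdxH. *asp-16* and its neighbour *asp-17* were at a ratio of 1.49 in wt and 3.52 in pdxH. Among the genes of this cluster with at least 50 reads the log2 ratios ran in both directions, from -0.27 for *asp-1* to 1.18 for *asp-16*, and *asp-15*, with 3 and 19 reads, was above 0. How reads that match several genes were counted is not given in the sources used here, and the similarity of these neighbours was not computed, so reads of similar genes may be divided unevenly.

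**Figure D3:**
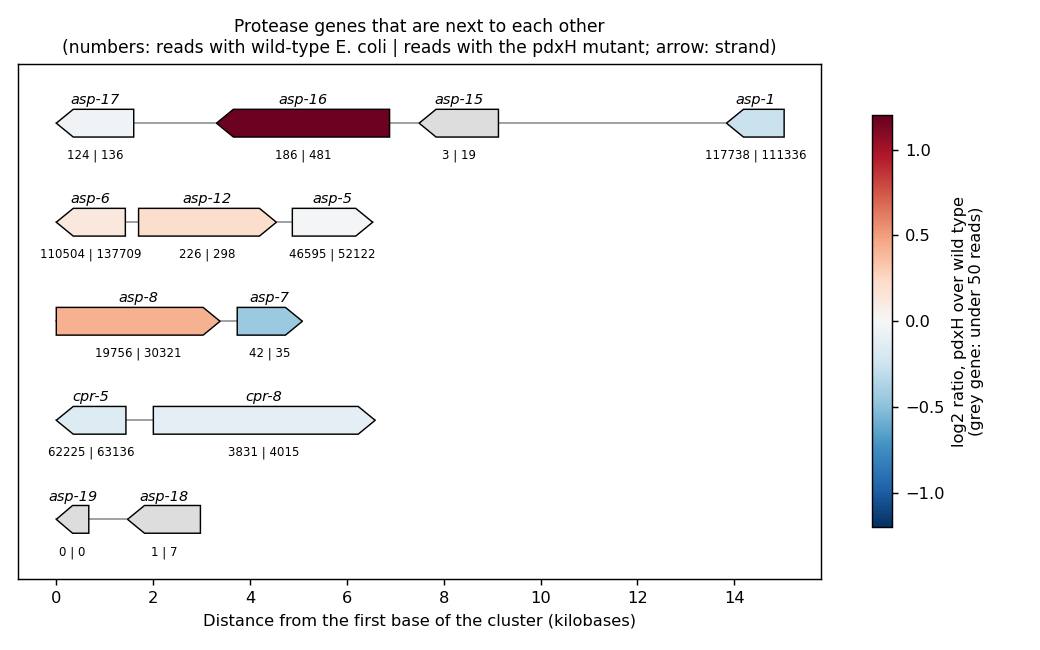
The 5 clusters of neighbouring protease genes on chromosome V, drawn to scale in kilobases from the first base of each cluster, with arrows for the strand, colour for the log2 ratio of reads in pdxH over wt (grey below 50 reads) and the reads of the wt and pdxH libraries under each gene. The cluster at the top holds *asp-16*, with 186 and 481 reads, and *asp-1*, with 117738 and 111336, and neighbours such as *asp-8* and *asp-7* differ by 463 times in wt.

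A few members overlap genes on the other strand, and whether the counting used strand is not given in the sources used here. *asp-2* shares 74 exon bases with the innexin gene *inx-10* (785 reads in wt and 931 in pdxH), *cpz-2* shares 59 with *gcy-34* (78 and 118) and *asp-4* shares 33 with *R12H7.4* (7 and 16). Each overlapping gene had far fewer reads than the protease. *cpz-1* overlaps a small nuclear RNA gene outside its exons, with 40 and 52 reads, and the piRNA genes that overlap *asp-9* and *cpr-4* had none.

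Protease inhibitors and calpains were read in the same way. Among 8 protease inhibitors none passed the threshold, and 6 had a log2 ratio above 0, with a median of 0.10. Beside them, 5.89% of all 14279 genes were higher, 9.48% were lower and 7422 were above 0. With so few genes, a count of none does not set the inhibitors apart. The cystatins, which block cysteine cathepsins, differed from each other. *cpi-2* had 5062 reads in wt and 5988 in pdxH, a log2 ratio of 0.05, and *cpi-1* had 1540 and 1351, a log2 ratio of -0.38. The most abundant serpin, *srp-7*, had 7937 and 9790, a log2 ratio of 0.11. Of the calpains, cytosolic cysteine proteases that are activated by calcium, 7 of 10 had at least 50 reads, with a median of 0.00. None of these 7 passed the threshold, too few genes to set the calpains apart from the same shares. *clp-1*, the most abundant of them, had 19926 and 22760 reads, a log2 ratio of 0.00, and *clp-7* and *clp-4* had log2 ratios of -0.14 and 0.15.

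The genes listed for the lysosomal membrane and acidification, most of them subunits of the vacuolar proton pump, shifted by little. Of these 30 genes none passed the threshold in either direction, where 5.89% of all genes were higher and 9.48% lower. All but *vha-18* had at least 1000 reads in all, and of all 8239 genes with as many, 161 were higher and 515 lower. A log2 ratio below 0 was found for 24 of the 30, beside 6857 of all 14279 genes, and the median was -0.08. The pump subunit *vha-2* had 43433 reads in wt and 48547 in pdxH, a log2 ratio of -0.03. *vha-13* had 35711 and 35468 reads, a log2 ratio of -0.20. *vha-6*, the intestinal subunit, had 33951 and 32737, a log2 ratio of -0.24. The membrane glycoprotein *lmp-1*, a common marker of worm lysosomes, had 7989 and 11083 reads and stood on the other side, at 0.28.

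Other lysosomal hydrolases had a median of -0.02 over the 32 of 33 with at least 50 reads, 15 above 0 and 17 below. The 3 with the most reads were cathepsin A-like carboxypeptidases. *ctsa-2* had 56158 reads in wt and 70090 in pdxH, a log2 ratio of 0.13, and *ctsa-1.2* and *ctsa-4.1* had log2 ratios of 0.03 and 0.13. None of the list was higher, and 3 of the 32 were lower, a share near the 9.48% of all genes. *nuc-1*, a lysosomal DNase, had 1090 and 737 reads, a log2 ratio of -0.75. *gba-4*, a relative of glucocerebrosidase, had 342 and 247 reads, a log2 ratio of -0.66. *aagr-1*, of the acid alpha-glucosidase family, had 1247 and 541 reads, a log2 ratio of -1.39.

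Transcription factors and trafficking genes of the lysosome and intestine had a median of 0.12, with 7 of 11 above 0 and none past the threshold. Over all 14279 genes, 7422 were above 0, 5.89% were higher and 9.48% lower, and 11 genes are too few to set the list apart. *daf-16*, the FOXO factor of insulin signalling, had 14436 reads in wt and 19687 in pdxH, a log2 ratio of 0.26. *skn-1*, an Nrf-like factor of stress responses, had 13234 and 16426, a log2 ratio of 0.12. *hlh-30*, the TFEB-like factor that drives lysosomal genes, had 12851 and 16881, a log2 ratio of 0.21. *elt-2*, the GATA factor of the intestine, had 1318 and 1436, a log2 ratio of -0.06. The yolk genes, whose products *cpl-1* processes in embryos, had only 52 reads in wt and 39 in pdxH over all 6, and *vit-5* had none.

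**Figure D4:**
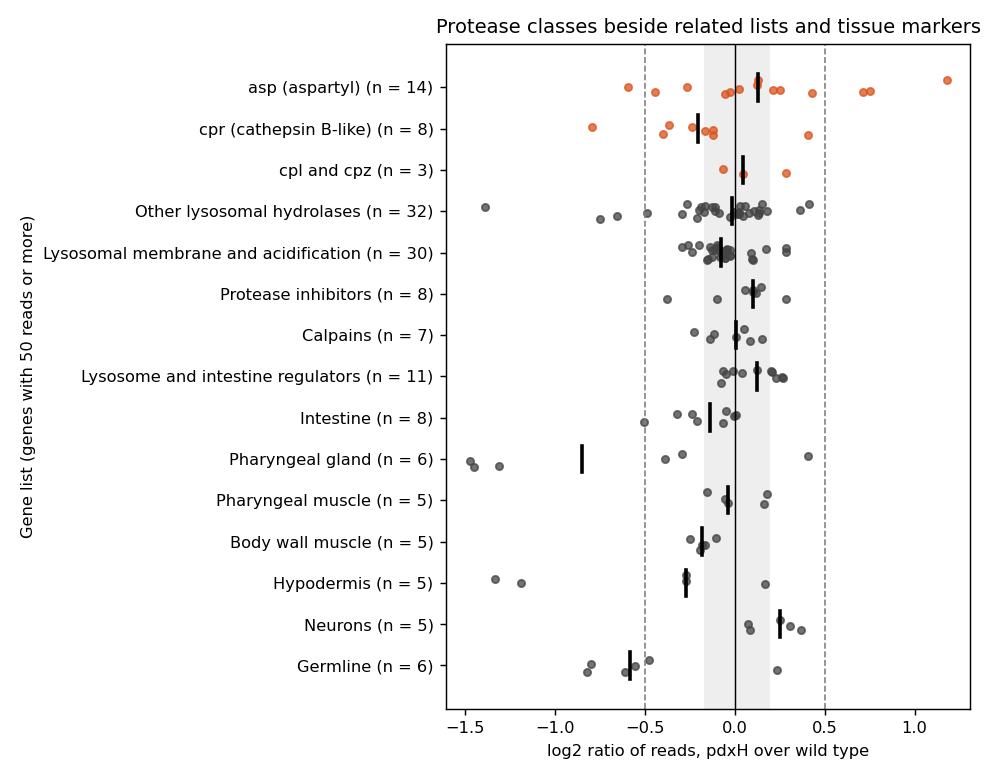
Log2 ratio of reads, pdxH over wt, of every gene with at least 50 reads in the protease classes (coloured) and in related lists and tissue markers other than sperm (dark grey), with a black line at each median, dashed lines at the threshold of 0.5 and a grey band for the interquartile range of all genes. The medians of the *asp* and *cpr* genes are 0.13 and -0.20, and that of the pharyngeal gland markers is -0.85.

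Whole worms mix many tissues, and in such samples fewer cells of a type and less RNA per cell cannot be told apart. Of the 9 intestinal markers searched, 8 were found and all had at least 50 reads. Of these, 7 had a log2 ratio below 0, and their summed level was 2235 RPM in wt and 1790 in pdxH, a log2 ratio of -0.32. Their median was -0.14, nearer to 0 than the sum, and 4 of the 8 counting intervals included 0. Most of this sum came from *vha-6*, *act-5* and *ifb-2*, an intermediate filament gene with 18288 and 16636 reads. *act-5*, the actin of the intestinal microvilli, was lower, with 29285 and 23514 reads (log2 ratio -0.50). *ges-1*, an intestinal esterase, had 2442 and 2788 (log2 ratio 0.00). Scaling the libraries by the sum of these markers raised every log2 ratio by 0.32, also the median of all genes, to 0.33. Relative to that sum, *asp-1* was at 0.05 and *cpr-5* at 0.15, both then above 0, and *cpr-1* and *asp-14* were at -0.47 and -0.27, inside the threshold. The part of the intestinal markers in the protease ratios was not tested.

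Other tissue markers moved as well, and their counts stand beside 5.89% of all genes higher and 9.48% lower. Of the 6 pharyngeal gland markers *phat-1*, *phat-2* and *phat-4* were lower, *phat-3* and *phat-5* were at -0.39 and -0.30, and the gland regulator *hlh-6* was at 0.41 (0.04 to 0.78), with a summed level of 164 RPM in wt and 82.3 in pdxH. The 5 body wall muscle markers all had log2 ratios below 0, with a median of -0.18 and none past the threshold. Of 5 hypodermal markers with at least 50 reads, the collagens *rol-6* and *dpy-7* were lower, with log2 ratios of -1.34 and -1.19. *lin-26* and *nhr-23* were both at -0.27, the median of these 5, and *elt-3* was at 0.17. The other hypodermal marker, the collagen *col-19*, had 29 reads in wt and 1 in pdxH, under the filter, with an interval of -10.4 to -2.45. The summed level over all 6 hypodermal markers was 920 RPM in wt and 497 in pdxH, led by *rol-6* with 22504 and 10150 reads. Of 6 germline markers, *pgl-3*, *htp-3*, *glh-1* and *glp-1* were lower, *pgl-1* and *rme-2* were at -0.48 and 0.23, and the median was -0.58, with a summed level of 289 and 196 RPM over the 6. The 5 neuronal markers had a median of 0.25, none past the threshold, and the pharyngeal muscle markers a median of -0.04. Their part in the differences of *cpr-1*, *asp-14*, *asp-13* and *asp-16* was not tested.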

How the data were processed

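Per the submitters' processing notes, the study's methods and the file header, Trimmomatic, STAR 2.5.3a (ce11) and HTSeq gave reads per gene, which the authors put into GFOLD 1.1.4. The deposited signal values are named RPKM, but the gene length was set to 20 for every gene, so they are reads scaled by library size. Each was divided by the value of 1 read (1.23 in wt, 1.08 in pdxH). Of the values above 0, 97.8% and 97.6% came within 0.02 of a whole number, and the reads summed to the totals in the table. The deposited columns GFOLD(0.01), E-FDR and log2 fold change are the authors' own comparison and were not used.

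Symbols were found for 44017 of the 46904 identifiers. Coordinates and exon lengths came from Ensembl release 115 (WBcel235, the assembly that ce11 names) for 46817. Ratios used a pseudocount of 1 read, a filter of 50 reads over both libraries and a threshold of 0.5, with Python 3.11.15 and scipy 1.17.1 (exact Clopper-Pearson intervals). The procedure was tested on simulated reads that held counting error only, so that test cannot speak to variation between cultures or amplification. All proteases with 50 reads are named, and of each related list the genes with the most reads and those past the threshold; other list genes named, such as *lmp-1*, *elt-2* and *ges-1*, were added with their values known. The members and lists were chosen with earlier results of these data known.

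As an alternative, an exact two-sided binomial test of the reads with Benjamini-Hochberg adjustment was run, which compares these libraries and not the diets. At an adjusted p of 0.05 and past 0.5 it called 660 of 14279 genes higher and 1261 lower, among them 2 and 2 proteases. The other alternatives were TMM factors of edgeR 4.0.16, other scalings, pseudocounts, filters and thresholds. No sequence was analysed here, and the planned search for promoter motifs was not run.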

Additional observations from a re-analysis of the deposited data

How the results depend on the processing

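With 1 library for each diet no replicate could be left out, so none of the ratios has an error between cultures. No paired analysis was possible because each group has 1 sample and no test was made between replicates. The 3 higher proteases became 5 with no filter on reads, which adds *asp-15* and *asp-18*, 1 at a threshold of 1, and 2 (without *asp-9*) with at least 200 reads, by the binomial test or when the interval had to lie past 0.5. The 2 lower ones became 0 at a threshold of 1, and 1 (*cpr-1*) under that rule for the interval. The median log2 ratio of -0.03 became 0.0205 with no filter, -0.00288 with at least 200 reads and -0.0499 with ribosomal protein scaling. Without its most abundant gene the summed log2 ratio went from 0.04 to 0.00694 for *asp* (without *asp-6*), from -0.23 to -0.27 for *cpr* (without *cpr-5*) and from 0.11 to 0.29 for *cpz* (without *cpz-1*), while *cpl* has 1 gene and gave no value. TMM scaling and a pseudocount of 0.1 read left 25 of 25 gene ratios inside their intervals, and centring on the median of all genes left 23. No gene crossed the threshold under these 3 settings or under ribosomal protein scaling. Scaling by the intestinal markers took 7 genes across the threshold (*asp-8*, *asp-12*, *cpr-1*, *cpz-2*, *cpr-3*, *asp-14* and *asp-4*) and turned the sign of 8 (*cpr-5*, *cpr-8*, *cpr-4*, *asp-5*, *cpr-2*, *asp-17*, *asp-1* and *cpz-1*). It also put 26.2% of all genes in the higher and 5.20% in the lower class. Depth limits *asp-7*, *asp-9*, *asp-12*, *asp-17* and *cpr-2*, whose intervals are wide.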
